A study of Mus musculus with 2 samples.

Results

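The unfolded protein response and the folding machinery of the endoplasmic reticulum (ER) were examined as 32 named genes, of 23462 genes that the array's probes could be matched to. The 32 genes were chosen by name and role, with earlier results of these data known. They hold 3 genes of stress sensing (2 sensors and the transcription factor XBP1) and 14 chaperones and folding factors. The rest are 8 genes of ER-associated degradation and 7 genes of translocation into the ER. Transcript levels were compared between prednisolone and vehicle, 1 array each.

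The cells were naive CD8 T cells (CD44low, CD62Lhigh) of spleens from the C57BL/6 mouse strain, isolated with depletion of CD44-expressing cells. Both cultures were stimulated for 2 days on plates coated with antibodies to TCR-β (3 µg/ml) and CD28 (1 µg/ml) with IL-2 (10 ng/ml). The prednisolone culture received this synthetic glucocorticoid at 1 µM and the other culture received vehicle. Both were moved to a new plate with IL-2 for 3 further days, RNA was taken on day 5, and 100 ng of it was amplified and labelled with Cy3 for a 1-colour Agilent array. Addition of the drug is described for the stimulation period only. With 2 arrays in all and no replicate, no difference was tested and the spread between cultures is unknown. The number of mice behind each culture is not stated in the labels.

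Secreted and membrane proteins enter the ER through the SEC61 channel and are folded there by chaperones such as BiP and by disulfide isomerases. When unfolded proteins accumulate, the membrane sensors IRE1 (gene Ern1), ATF6 and PERK (gene Eif2ak3) are activated: IRE1 removes a short intron from Xbp1 mRNA, ATF6 is cut in the Golgi to release a transcription factor, and PERK slows translation while favouring that of ATF4. XBP1 and ATF6 are known for raising chaperone and degradation genes, and XBP1 is also known in effector CD8 T cells.

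XBP1, ATF6 and the ubiquitous factor NF-Y are known to act at short promoter elements. The ER stress response element (ERSE) is CCAAT, 9 bases of any kind and CCACG. ERSE-II is ATTGG, 1 base and CCACG, so both elements end in the same 5 letters. The letters were searched on both strands of RefSeq promoters, from 250 bases before to 50 bases after the gene start (assembly GRCm38.p6), and 25 of the 32 genes had an entry. Atf6, Hyou1, Manf, Derl1, Sec61a1, Ssr2 and Sec11c had none. An exact ERSE stood in 9 of these 25 (36%) and in 37 of all 27025 genes with a promoter (0.137%). ERSE-II stood in 2 of the 25 (8%), against 12 of all genes (0.0444%). The 32 genes were picked from known genes of the response, so these shares describe the choice of genes. The matches are shown because the values are set against them further on. Each is given 5′ to 3′ on the strand of the gene with 6 flanking bases, and capitals mark the letters of the element, which read CGTGG and ATTGG where the element lies on the opposite strand.

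Hspa5 (ERSE 65 bases before the start, chr2:34772019-34772049, + strand): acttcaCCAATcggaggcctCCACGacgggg
Hsp90b1 (ERSE 212 bases before, chr10:86705632-86705662, - strand): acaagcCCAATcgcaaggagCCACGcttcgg
Hsp90b1 (ERSE 107 bases before, chr10:86705527-86705557, - strand): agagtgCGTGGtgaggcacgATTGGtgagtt
Pdia6 (ERSE 98 bases before, chr12:17266485-17266515, + strand): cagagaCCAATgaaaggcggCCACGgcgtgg
Calr (ERSE 162 bases before, chr8:84847069-84847099, - strand): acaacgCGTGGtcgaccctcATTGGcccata
Canx (ERSE 145 bases before, chr11:50325794-50325824, - strand): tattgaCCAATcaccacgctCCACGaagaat
Dnajc3 (ERSE 105 bases before, chr14:118937821-118937851, + strand): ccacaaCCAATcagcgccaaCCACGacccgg
Creld2 (ERSE 126 bases before, chr15:88819514-88819544, + strand): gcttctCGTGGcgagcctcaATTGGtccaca
Syvn1 (ERSE 44 bases before, chr19:6046526-6046556, + strand): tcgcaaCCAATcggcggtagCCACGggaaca
Derl3 (ERSE 156 bases before, chr10:75893236-75893266, + strand): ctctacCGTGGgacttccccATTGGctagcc
Dnajb11 (ERSE-II from base 8 of the transcript, chr16:22857846-22857868, + strand): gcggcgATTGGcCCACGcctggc
Herpud1 (ERSE-II 52 bases before, chr8:94386371-94386393, + strand): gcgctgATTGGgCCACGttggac

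Levels are processed signals in intensity units of the scanner software. A difference is prednisolone minus vehicle on the log2 scale after each array's 75th percentile was subtracted (400.4 units for vehicle and 386.9 for prednisolone), so 1 is 2-fold. The value after ± is the software's error of both arrays, combined over the used probes of a gene, and was 0.20 for the median gene. It covers the arrays only. It gets smaller with more probes and leaves out any disagreement between them. On each array 53.5% of spots were well above background and none was saturated, and both arrays lay on 1 slide and were scanned together. In all, 13135 genes had a value, with a median difference of 0.00 among the 11968 measured on both arrays (SD over genes 0.73). Of the 13135 genes, 902 (6.87%) were higher with prednisolone by 2-fold or more and 1027 (7.82%) were lower by as much. At 1.5-fold these shares were 15.6% higher and 16.7% lower. Genes higher with prednisolone made up 46.8% of those 2-fold apart, and 68.0% when the arrays were scaled on 8 spike-in control probes, which shifted the median gene by 0.24.

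All 6 usable markers of CD8 T cells were well above background on both arrays, and their summed level was 380 times the 75th percentile with vehicle and 307 times with prednisolone. Many genes of this response are abundant in plasma cells, so B and plasma cell markers were read too. Of 9 usable ones, 7 did not reach well above background in vehicle or prednisolone cells (among them Cd79a, Ms4a1, Mzb1 and Sdc1), and their summed level was 0.116 and 0.137 times the 75th percentile. Myeloid markers summed to 6.99 and 5.54 (3 and 4 of 7 above background), NK cell markers to 0.110 and 0.198 (2 and 3 of 3) and CD4 T cell markers to 1.85 and 1.86 (2 and 2 of 3). Some single markers were further apart than these sums. Of the CD8 T cell markers 5 of 6 were lower with prednisolone (median -0.44). The macrophage-associated marker Cd68 read 1045 units with vehicle and 217 with prednisolone (-2.22 ± 0.20). Foxp3, the regulatory T cell factor gene, differed by -0.75 ± 0.22. Klra8, an NK cell receptor gene above background with prednisolone only, was at least 4.51-fold higher. The other myeloid, CD4 T cell and NK cell markers measured on both arrays lay between -0.03 and 0.23. They are few, and the 2 NK cell markers among them were dim, at 42.2 units or less. The part of other cells in the differences was not tested. In bulk RNA, fewer cells of a type and less RNA per cell cannot be told apart.

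Of the 32 genes, 31 were measured on both arrays. Their median difference was 0.40, 25 were above 0 and 6 below, and the range was -0.76 to 1.81. Of all 11968 measured genes, 5997 were above 0. With prednisolone 9 were at least 2-fold higher (Derl3, Xbp1, Sdf2l1, Dnajb11, Hyou1, Hspa5, Creld2, Calr and Pdia6), or 29.0% of the 31 beside 6.87% of all genes. Of these, Hspa5, Creld2, Calr and Pdia6 lay within their software error of the 2-fold line. Of the 31 genes, 19 rest on 1 used probe. No member was 2-fold lower, beside 7.82% of all genes. Because the members were chosen with earlier results of these data known, these shares are a description only. At 1.5-fold, 13 were higher (41.9%) and 1, Edem1, was lower, beside 15.6% and 16.7% of all genes. Under spike-in scaling 17 were 1.5-fold higher, with Ern1 (0.64), Canx (0.65), Derl2 (0.61) and Sec61a1 (0.64) added, and Edem1 was under 1.5-fold lower (-0.52). That scaling shifted the median gene by 0.24, and 10.9% of all genes were then 2-fold higher. The share of all genes at 1.5-fold was not computed for it. By role, the median was 1.07 for the 13 measured chaperones, 0.40 for the 3 genes of stress sensing, 0.13 for degradation and 0.14 for translocation. The difference exceeded the software's error upward in 20 genes and downward in 4, and lay within it in 7. The same share over all genes was not computed. All measured genes had 25th and 75th percentiles of -0.35 and 0.35, beyond the median error of 0.20. This count is therefore not read as a trait of the members.

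**Figure D1:**
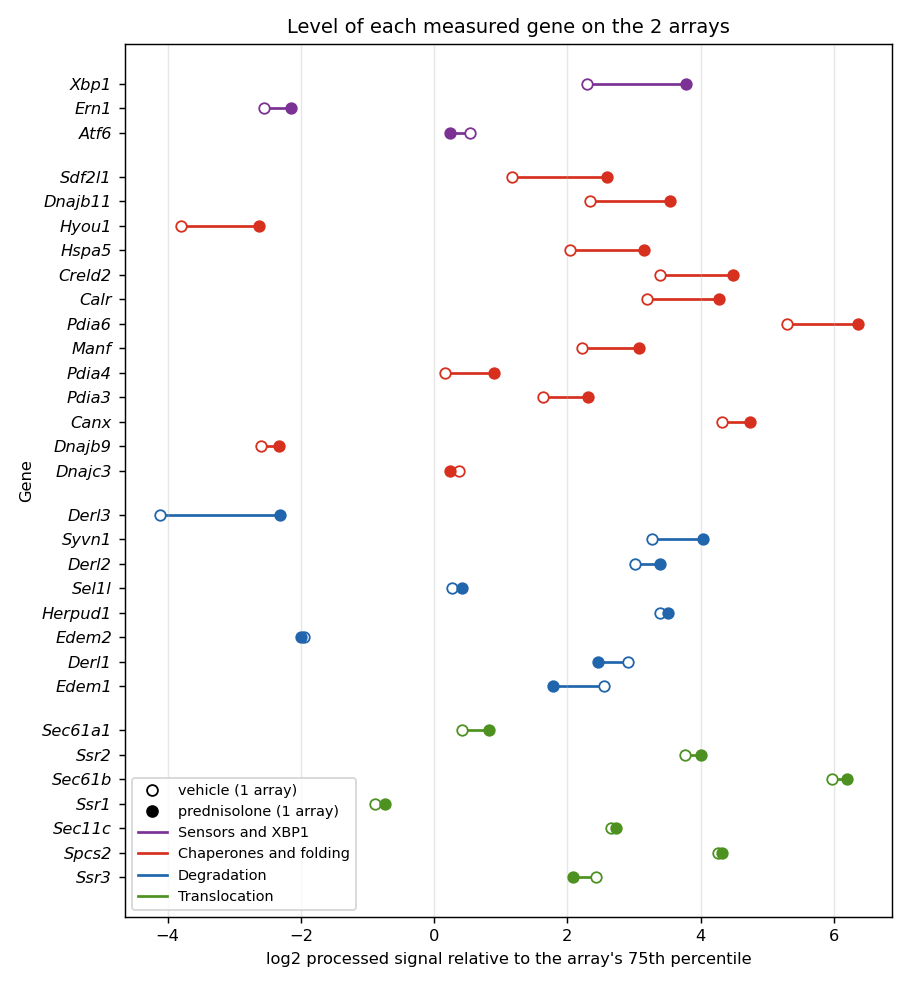
Level of each of the 31 measured genes on the vehicle array (open circles) and the prednisolone array (filled circles), as log2 processed signal relative to the array's 75th percentile, coloured by role. The filled circle lies to the right for 25 genes, with the widest gaps at Derl3, Xbp1 and Sdf2l1. Levels of different genes come from different probes and are not comparable with each other.

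Among the genes of stress sensing, only Xbp1 was past 2-fold. XBP1 is the transcription factor made from the mRNA that IRE1 splices. Its 3 probes read 945, 625 and 12758 units with vehicle and 2623, 1744 and 32485 with prednisolone. The prednisolone array was higher on every probe, by 1.40 to 1.53, and the mean was 1.48 ± 0.12, or 2.80-fold. Where these probes lie on the transcript was not used here, so spliced and unspliced Xbp1 cannot be told apart. Ern1, which encodes the sensor IRE1 itself, gave a dim 68.2 units with vehicle and 86.9 with prednisolone (0.40 ± 0.22). Atf6 read 581 with vehicle and 454 with prednisolone, a difference of -0.31 ± 0.20. The sensor genes thus lay on either side of 0 and under 1.5-fold, while Xbp1, downstream of IRE1, was past 2-fold.

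The chaperones held most of the 2-fold differences, with 7 of 13 measured genes at least 2-fold higher (53.8%, beside 6.87% of all genes). At 1.5-fold 10 were higher (76.9%, beside 15.6% of all genes). Of the 13, 12 were above 0 (range -0.14 to 1.42), beside 5997 of all 11968 measured genes. BiP, the HSP70 chaperone of the ER and the classical marker of this response, is encoded by Hspa5. Its used probes read 2020 and 1340 units with vehicle and 4000 and 2921 with prednisolone. Both probes were higher with prednisolone, giving 1.10 ± 0.14, or 2.15-fold. A further Hspa5 probe, left out because its local background was flagged on the prednisolone array, read 11172 and 22765 (1.08).

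The partners of BiP were not alike. Dnajb11 encodes ERdj3, a J-domain co-chaperone that delivers unfolded proteins to BiP. It read 2581 and 1600 units with vehicle and 5042 and 4003 with prednisolone (1.19 ± 0.14, 2.29-fold). The remaining Dnajb11 probe did not rise well above background on the arrays, and the gene's difference was 0.78 when that probe was kept. SDF2L1, which works in a complex with ERdj3, had the highest difference of the chaperone genes: Sdf2l1 read 903 with vehicle and 2335 with prednisolone (1.42 ± 0.20, 2.68-fold). Hyou1 encodes the large HSP70-like protein that acts as a nucleotide exchange factor for BiP. Its 3 probes were dim, at 28.2, 26.6 and 32.1 units with vehicle and 79.0, 69.9 and 44.5 with prednisolone. All were higher with prednisolone, but by 1.54, 1.44 and 0.52, the widest disagreement between probes of any of the 31 genes, and the mean was 1.17 ± 0.15 (2.25-fold). After normexp background correction it was 0.52.

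Other co-chaperones of BiP had smaller differences. Dnajb9 (ERdj4, known to restrain IRE1) had probes of opposite sign. The brighter read 231 with vehicle and 363 with prednisolone (0.70), the dimmer 19.1 and 16.4 (-0.17), and their mean was 0.26 ± 0.22. Dnajc3 (p58IPK, known as an inhibitor of PERK) read 517 and 455, a difference of -0.14 ± 0.20 that turned positive (0.10) under spike-in scaling. The Dnajb9 value rests on the dim probe: from the brighter one alone it was past 1.5-fold, with an error of 0.21.

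Disulfide isomerases form and rearrange the disulfide bonds of new proteins. Pdia6 read 15677 units with vehicle and 31690 with prednisolone (1.07 ± 0.20, 2.09-fold). Pdia4 read 450 and 719 (0.73 ± 0.20). Pdia3, the isomerase ERp57 that works with the lectin chaperones and in loading of MHC class I, read 3285 and 465 on its probes with vehicle and 5106 and 716 with prednisolone (0.68 ± 0.14). All 3 were higher with prednisolone, the last pair by more than 1.5-fold and less than 2-fold.

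The lectin chaperones calreticulin and calnexin hold newly made glycoproteins in a folding cycle. Calr, for the soluble calreticulin, read 3674 units with vehicle and 7518 with prednisolone (1.08 ± 0.20, 2.12-fold). Canx, for the membrane-bound calnexin, read 8034 and 10324 (0.41 ± 0.20), and its flagged probe gave 0.43. Calr was thus past 2-fold and Canx under 1.5-fold.

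Creld2, a disulfide isomerase-like protein induced by ER stress, read 4214 units with vehicle and 8684 with prednisolone (1.09 ± 0.20, 2.13-fold). Manf, a small secreted protein retained in the ER with BiP, read 1856 and 3254 (0.86 ± 0.20), and its flagged probe gave 0.96. Hsp90b1 encodes GRP94, the HSP90 of the ER. Its only probe was flagged for local background on the prednisolone array and gave no value in the main setting. With flagged spots kept it read 21435 and 21754, a difference of 0.07, beside 1.10 for Hspa5 in the same setting. Both promoters hold an exact ERSE.

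**Figure D2:**
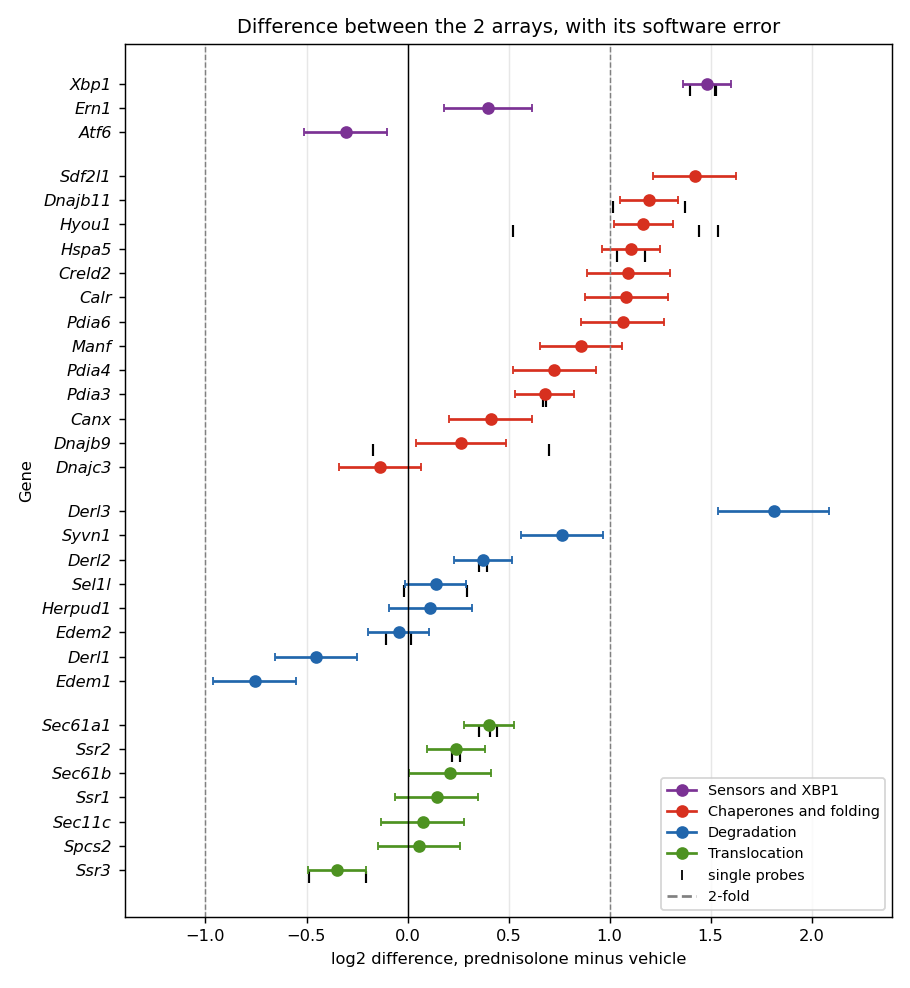
Log2 difference, prednisolone minus vehicle, of each measured gene (circles) with the scanner software's error (bars), single probes as black ticks where a gene had several, and dashed lines at 2-fold. Of the chaperone genes, 7 lie past the upper line and Dnajc3 alone lies below 0; no gene lies past the lower line.

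Genes of ER-associated degradation, which moves misfolded proteins back to the cytosol for the proteasome, were spread widely. Of 8 genes, 5 were above 0 and 3 below, with 1 at least 2-fold higher (12.5%, beside 6.87% of all genes). This was Derl3, a derlin of the membrane channel, with 23.0 units with vehicle and 78.0 with prednisolone. Its difference of 1.81 ± 0.28 (3.51-fold) was the highest of all 31 genes but rests on 1 dim probe, and it was 0.68 after normexp background correction. The other derlins did not share it. Derl2 read 5876 and 1784 units with vehicle and 7260 and 2260 with prednisolone (0.37 ± 0.14). Derl1 read 3005 and 2123, a difference of -0.45 ± 0.20. The 3 derlin genes were thus over 2-fold higher, under 1.5-fold higher and lower with prednisolone.

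HRD1, the ubiquitin ligase at the centre of this pathway, is encoded by Syvn1, which read 3873 units with vehicle and 6358 with prednisolone (0.76 ± 0.20, 1.70-fold). Sel1l, its membrane adaptor, read 3404 and 4038 on a bright probe (0.30) and 68.9 and 65.7 on a dim one (-0.02), with a mean of 0.14 ± 0.15. Herpud1, a membrane protein that binds the ligase complex, read 4214 and 4404 (0.11 ± 0.20), and its flagged probe gave 0.26. Syvn1 alone of these 3 passed 1.5-fold.

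The EDEM proteins recognise misfolded glycoproteins by trimming their mannose residues. Edem1 read 2340 units with vehicle and 1339 with prednisolone, a difference of -0.76 ± 0.20 (1.69-fold lower). This was the lowest value among the 31 genes, and the flagged Edem1 probe was lower too (-0.47). Edem2 read 112 and 96.4 on its probes with vehicle and 100.4 and 94.3 with prednisolone (-0.04 ± 0.15), and its sign turned under median, spike-in and series-matrix scaling. Edem1, a known target of XBP1, thus stood on the other side of 0 from Xbp1 and Hspa5.

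The translocation genes were close together and none reached 1.5-fold in the main setting (Sec61a1 did under spike-in scaling), beside 15.6% of all genes higher and 16.7% lower. Of 7 genes, 6 were above 0, with a range of -0.35 to 0.40. Sec61a1, the channel's pore subunit, gave 0.36 to 0.44 on its 3 probes (0.40 ± 0.12). Sec61b, a small channel subunit, read 25270 and 28260 (0.21 ± 0.20). The subunits of the translocon-associated complex TRAP did not lie on one side: Ssr2 gave 0.24 ± 0.14, Ssr1 0.14 ± 0.21 and Ssr3 -0.35 ± 0.14, with both Ssr3 probes lower with prednisolone (-0.49 and -0.21). The signal peptidase genes, whose products cut signal peptides from proteins entering the ER, were within their error: Sec11c gave 0.07 ± 0.20 and Spcs2 0.06 ± 0.20, and the sign of Spcs2 turned under quantile normalization.

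The remaining genes of the pathway were read from 6 further lists, 101 genes in all, of which 90 had a value. The median of the 88 measured on both arrays was 0.09, with 2 higher and 8 lower by 2-fold or more, or 2.22% and 8.89% of the 90, beside 6.87% and 7.82% of all genes. The branch of PERK and ATF4 was split. Of 13 measured genes 6 were above 0 and 7 below, with a range of -2.85 to 0.62 and a median of -0.73. None was 2-fold higher and 5 were 2-fold lower (38.5%, beside 7.82% of all genes). Eif2ak3, the gene of the sensor PERK, read 89.1 units with vehicle and 114.9 with prednisolone (0.42 ± 0.21). Atf4, its main transcription factor, read 3171 and 1851 (-0.73 ± 0.20). Ddit3, which encodes CHOP and is a target of ATF4, read 1488 and 225 (-2.68 ± 0.20). Thus the sensor was under 1.5-fold higher and the factor and its target were lower with prednisolone.

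Of the 7 genes of the list below 0, 5 were past 2-fold in the main setting. Nupr1, a stress-response gene, had the lowest value of the list at -2.85 ± 0.21. The others past 2-fold, named after their values were seen, were the lipoprotein receptor gene Vldlr (-2.66 ± 0.21), the asparagine synthetase gene Asns (-1.80 ± 0.15) and the stress factor gene Atf3 (-1.64 ± 0.22). Atf3 read 139 units with vehicle and a dim 43.0 with prednisolone. Across the alternatives it ranged from -1.69 to -0.88, so it was not past 2-fold in all of them. Ppp1r15a encodes GADD34, which ends the block of translation, and read 1557 with vehicle and 878 with prednisolone (-0.78 ± 0.20). The highest of the list were Sesn2, a stress-induced regulator of growth signalling, at 0.62 ± 0.20 and Eif2s1, the translation factor subunit that PERK phosphorylates, at 0.49 ± 0.20. Trib3 and Chac1 had flagged probes only, and gave -0.87 and -1.89 with flagged spots kept.

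Folding enzymes outside the 32 genes did not share the chaperones' median. Of 20 measured on both arrays the median was -0.03. By 2-fold or more 1 gene was higher and 1 lower, beside 6.87% and 7.82% of all genes. Members and lists were chosen with earlier results of these data known, so the gap between the medians is a description only. Txndc5, a disulfide isomerase of the thioredoxin family, read 1973 units with vehicle and 4262 with prednisolone (1.16 ± 0.20). Txndc11 was 0.73 ± 0.20. Ero1a, the oxidase that reoxidises disulfide isomerases, read 18950 and 3890 (-2.23 ± 0.20), and the lowest after it was Tmx3 (-0.98 ± 0.21). P4hb, the archetypal protein disulfide isomerase, read 5565 and 4787 (-0.17 ± 0.20). Isomerase genes were thus found more than 2-fold higher, near 0 and lower on the same arrays.

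The other lists had medians near that of all genes. Of 11 other sensors and regulators the median was 0.10. Wfs1, an ER membrane protein known to restrain ATF6, was the highest at 1.03 ± 0.21, then Atf6b, a paralogue of Atf6, at 0.49 ± 0.21. Creb3l2, a membrane-bound transcription factor cut like ATF6, was the lowest at -1.22 ± 0.25, then Mbtps2, a protease that cuts ATF6, at -0.36 ± 0.15. Across the alternatives Wfs1 ranged from 0.78 to 1.27 and Creb3l2 from -1.28 to -0.58. Neither was thus past 2-fold in all of them. In 19 other degradation genes the median was 0.09 and none was 2-fold apart. Their ends were Nploc4 (0.70) and Ube2g2 (0.47), and Rnf5 (-0.61) and Herpud2 (-0.60).

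In 17 other translocation genes the median was 0.10, and 1, Tram2, was 2-fold lower (-1.25 ± 0.21). Across the alternatives Tram2 ranged from -1.31 to -0.90. The ends of that list were otherwise Srpr (0.75 ± 0.27, dim at 28.3 and 45.8 units) and Srp9 (0.64), and Srp54a (-0.49), all of the signal recognition particle or its receptor. In 8 genes of the oligosaccharyltransferase, which attaches glycans to new proteins, the median was 0.10 and the 8 lay between -0.15 (Magt1) and 0.34 (Stt3b), with Ddost at 0.20 and Tusc3 at -0.11. Rpn1, Rpn2, Ostc and Krtcap2 had flagged probes only. With flagged spots kept, Rpn1, a subunit of the same complex, was past 2-fold (1.02), and the others gave 0.24, 0.13 and 0.02.

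**Figure D3:**
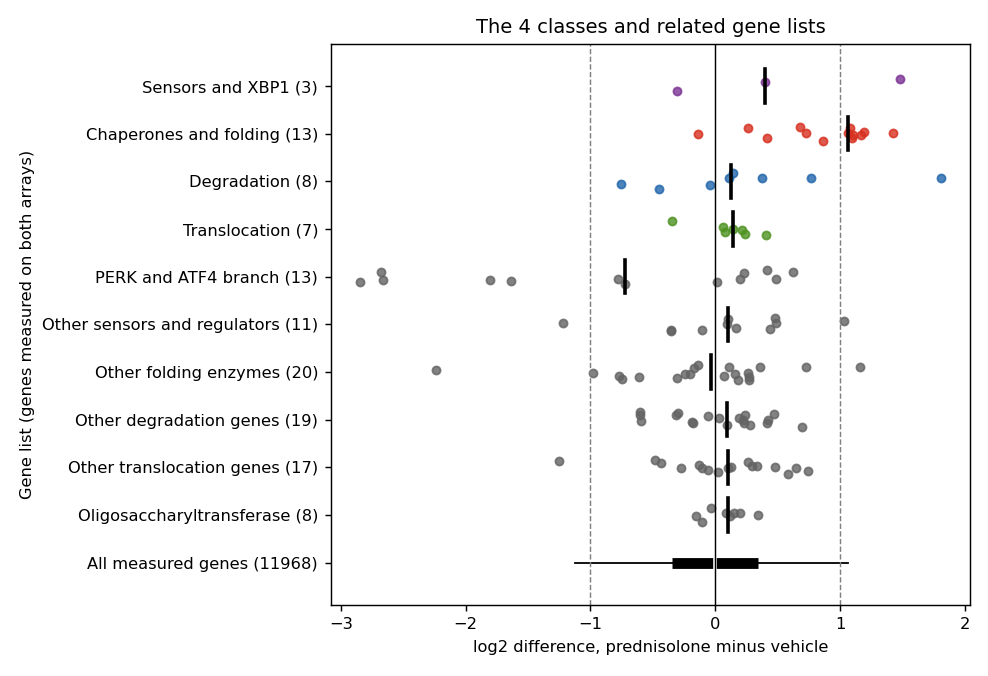
Log2 difference, prednisolone minus vehicle, of every measured gene (points) in the 4 roles (coloured) and the 6 further lists (grey), with the median of each list as a black bar and dashed lines at 2-fold; the bottom row gives all 11968 measured genes as their 25th to 75th percentile (thick bar, -0.35 to 0.35) and their 5th to 95th (thin line, -1.13 to 1.06). The chaperones' median is 1.07 and that of the PERK and ATF4 branch is -0.73.

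The promoter elements were set against the measured differences. The 10 measured members with an exact ERSE or ERSE-II had a median of 1.07, and 6 were at least 2-fold higher: Derl3, Dnajb11, Hspa5, Creld2, Calr and Pdia6. The 14 members with a promoter entry and neither element had a median of 0.24, and 2 were at least 2-fold higher. The 7 without an entry had a median of 0.24, with 1, Hyou1, at least 2-fold higher. Of all genes, 6.87% were at least 2-fold higher. The members were picked from known genes of the response with earlier results of these data known, so these counts are a description only. The grouping overlaps the roles, since every translocation gene with an entry lacks both elements.

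An exact element did not go with a 2-fold difference in every member, nor its absence with a small one. Canx (0.41), Herpud1 (0.11) and Dnajc3 (-0.14) hold one and were under 1.5-fold. Hsp90b1, with 2 exact ERSE matches, had no value in the main setting and gave 0.07 with flagged spots kept. Xbp1 (1.48) and Sdf2l1 (1.42) were past 2-fold with neither element in this window. Allowing 1 changed letter, ERSE was found in 14 of 25 members (56%) and in 1.72% of all genes, and in neither Xbp1 nor Sdf2l1. With this looser match the groups lay closer together: 5 of 13 measured members with it were 2-fold higher (median 0.73), and 3 of 11 without it (median 0.21). The share over all genes was 6.87%. The 250 bases before the start of Xbp1, with the second highest difference, and those of Hspa5, with its exact ERSE in capitals, are given for comparison. Both lie on the + strand.

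Xbp1 (chr11:5520391-5520640): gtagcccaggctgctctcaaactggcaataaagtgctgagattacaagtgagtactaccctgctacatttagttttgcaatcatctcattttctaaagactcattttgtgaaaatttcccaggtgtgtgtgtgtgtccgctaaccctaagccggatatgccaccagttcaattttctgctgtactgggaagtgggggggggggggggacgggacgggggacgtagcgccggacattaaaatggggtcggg
Hspa5 (chr2:34771840-34772089): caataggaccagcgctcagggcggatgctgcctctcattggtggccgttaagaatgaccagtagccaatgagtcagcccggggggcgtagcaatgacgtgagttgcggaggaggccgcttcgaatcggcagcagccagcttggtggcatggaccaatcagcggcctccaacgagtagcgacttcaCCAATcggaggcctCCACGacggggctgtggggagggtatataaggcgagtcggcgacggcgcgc

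Outside the members, 15 genes with an exact ERSE or ERSE-II were measured on both arrays. None of them was 2-fold higher, beside 6.87% of all genes, and with so few genes these are not far apart. The range of these 15 genes was -0.55 to 0.98. Their median lay at 0.00, as did that of all measured genes. For 2 more only a lower bound could be given, at least 0.65 for Ptgdr2 and at least 0.99 for Spats2l. Either may therefore be past 2-fold. The median of all 17 with these at their bound was 0.05. Other elements were searched in the same windows. The unfolded protein response element TGACGTGG, known for XBP1, stood in none of the 25 members with a promoter entry and in 0.714% of all genes. The cyclic AMP response element TGACGTCA, known for CREB and ATF factors, stood in none of these 25 and in 2.03% of all genes. The full glucocorticoid response element is AGAACA, 3 bases and TGTTCT. It stood in none of these 25 and in 3 genes in all (0.0111%), none of which had a value. The absence of letters from a window says nothing of the factor.

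**Figure D4:**
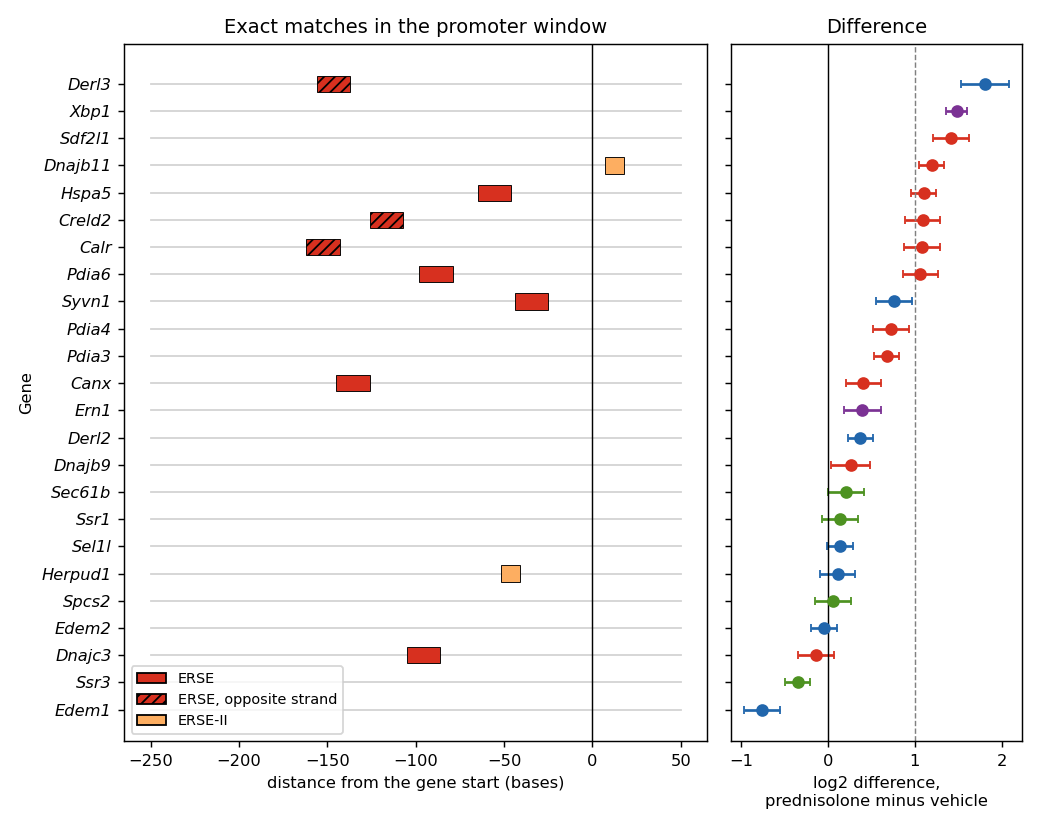
Left, position of each exact ERSE (red, hatched on the opposite strand) and ERSE-II (orange) from 250 bases before to 50 after the gene start in the 24 measured members with a promoter entry. Right, the log2 difference of the same genes with the software's error, in descending order and coloured by role. Of the 8 genes past the dashed 2-fold line, 6 hold an element, and Xbp1 and Sdf2l1 do not.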

How the data were processed

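RNA of 1 vehicle and 1 prednisolone culture was measured. The deposited scanner files hold spot intensity from Agilent Feature Extraction 12.0.3.1, per the file headers, with a background-subtracted, detrended processed signal, flags and an error. A second deposited table is that signal multiplied by 0.792 (vehicle) and 0.858 (prednisolone), with column medians of 16.2 and 16.4, linear and uncentred; how the submitters set these factors is not given. The headers name build mm9, so no array coordinates are given.

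Log2 processed signal minus the 75th percentile of the 59305 non-control spots on the same array was compared. Control spots and spots with any outlier flag were left out. This removed 8 of the 55 member probes, all for flagged local background. Of the 47 left, 46 were well above background on both arrays and were averaged per gene; genes above background on 1 array only have a bound (1167 genes). Transcript accessions were matched to RefSeq symbols (GRCm38.p6), which named 33767 of 56605 probes. The software's error was about 10.0% of the signal. For 280 probes printed at least 5 times the median SD between spots was 0.036 with vehicle and 0.038 with prednisolone (log2).

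A difference counted at 2-fold, with 1.5-fold also given, and no test was made. The genes named are all members, the 2 highest and 2 lowest of each further list, and 6 anchors (Eif2ak3, Atf4, Ddit3, Ppp1r15a, P4hb and Ero1a). Genes with flagged probes only, Vldlr, Asns and Atf3 were named after their values were seen. Members, lists and tests were chosen with earlier results of these data known. Of 14 alternatives, 13 were planned and 1 was added after seeing the data. Scripts used Python 3.11.15, pandas 2.3.3, numpy 2.4.6, R 4.3.3 and limma 3.58.1 (normexp with offset 50, quantile), and were tested on simulated data. Protein features were not analysed here. Some marker genes are not reported here by name.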

Additional observations from a re-analysis of the deposited data

How the results depend on the processing

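No member was 2-fold lower under any of the 14 alternatives, and 9 were 2-fold higher under 10 of them and in the main setting. The exceptions were normexp (7, without Derl3 and Hyou1), spike-in scaling (11, with Manf and Syvn1), no filter on dim probes (8, without Dnajb11) and a filter at 100 units (7 of 28 members measured, without the dim Derl3 and Hyou1). At 1.5-fold, 13 members were higher and Edem1 lower, except with normexp (12, without Hyou1), spike-in scaling (17, and Edem1 under 1.5-fold lower), the filter at 100 units (12, with Dnajb9) and the brightest probe (14, with Dnajb9). The chaperones' median was 0.81 with normexp, 1.30 with spike-in scaling and 0.86 with no filter on dim probes. With flagged spots kept, which brings in Hsp90b1, it was 0.99. The sensors' median was 0.19 with normexp and 0.64 with spike-in scaling. Spike-in scaling gave medians of 0.64 for all members, 0.36 for degradation and 0.38 for translocation, beside a median gene at 0.24. Signs turned for Edem2 (median, series-matrix and spike-in scaling), Spcs2 (quantile) and Dnajc3 (spike-in scaling), all with differences within their error. Genes at least 2-fold higher and lower in all were 902 and 1027 in the main setting, 429 and 434 with normexp, 1429 and 671 with spike-in scaling, and 1460 and 1701 of 21778 with no filter on dim probes. The cause of these shifts was not tested. Shares of all genes at 1.5-fold were computed for the main setting only. The added alternative, leaving out only spots with a spot flag, gave 9 members 2-fold higher and Hsp90b1 at 0.07. No paired analysis was possible because there was 1 array per condition. Outside the members, Atf3, Creb3l2, Tram2 and Wfs1 were past 2-fold in the main setting but not under every alternative. Dim probes limit Derl3, Hyou1, Ern1 and Dnajb9 among the members, and the precision is limited by 1 array per condition.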
